A study of Homo sapiens with 6 samples.

Results

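The calcium-calmodulin kinase family was followed here through its splicing: CAMK2A, CAMK2B, CAMK2D and CAMK2G, which encode the subunits of CaMKII, the kinase kinases CAMKK1 and CAMKK2, their substrate kinases CAMK1, CAMK1D and CAMK4, and CAMKV, a relative that binds calmodulin and has no known kinase activity. Events were taken by gene symbol, which found all 10 genes of the 30275 symbols in the table and 550 of its 721551 splicing events. Because a splice site with 2 choices is listed in 2 mirrored entries, these made 485 separate events. The samples were SKNBE2 cells, a human neuroblastoma line labelled as neuroblast with MYCN amplified, in 3 libraries labelled Control and 3 treated with DFMO at 250 µM for 4 days. DFMO (difluoromethylornithine) inhibits ornithine decarboxylase, the first enzyme of polyamine synthesis. All libraries came from this 1 line, the labels give no vehicle for the Control libraries, and they do not say that the 3 libraries of a group were separate cultures, so p values measure only the spread between these libraries, which may be technical.

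When calcium rises, calmodulin binds it and then docks on a regulatory segment of these kinases, which frees the catalytic domain. CaMKII subunits are joined into a ring-shaped holoenzyme by their association domains, and a linker of variable length between the regulatory segment and the association domain sets how far the kinase domains reach from the ring. The linker is encoded by a row of alternative exons in each CAMK2 gene. CaMKK1 and CaMKK2 phosphorylate the activation loop of CaMKI and CaMKIV, CaMKK2 also that of AMP-activated kinase, and CaMKIV is a nuclear kinase that acts on CREB.

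The family was chosen from measured values of this same comparison. A 63-nt exon of CAMK2G and a 213-nt intron of CAMKV had stood out among all events, and both are given as a description with no test. Both still entered the fits over the whole table and are included where called events are counted, with no p value printed. The other p values below come from fits over the whole table, but the choice of members was made with results of this comparison known, so they are no independent support.

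The exons that carry the main differences are shown first, to let the differences be read against what was included or skipped. They are written 5′ to 3′ on the coding strand as in GENCODE release 29 transcripts (GRCh38), with the build of the table given by the submitters' processing notes as GRCh38. The CAMK2G exon lies on the minus strand at chr10:73839539-73839601, is coding in 3 of the 4 annotated transcripts that hold it, and keeps the reading frame. Of its bases, 81.0% are G or C. The 2 CAMKK2 exons lie on the minus strand at chr12:121248606-121248734, which keeps the frame, and chr12:121244573-121244615, which shifts it.
CAMK2G 63-nt exon: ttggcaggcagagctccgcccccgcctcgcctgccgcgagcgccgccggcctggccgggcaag
CAMKK2 129-nt exon: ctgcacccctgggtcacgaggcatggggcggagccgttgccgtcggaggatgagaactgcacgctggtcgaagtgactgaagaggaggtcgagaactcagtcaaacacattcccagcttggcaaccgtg
CAMKK2 43-nt exon: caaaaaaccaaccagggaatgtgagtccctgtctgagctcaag

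The CAMK2G 63-nt linker exon was included at a low level in the Control libraries and at about the same rate as it was skipped in the DFMO libraries. Its deposited percent of inclusion was 9.73, 19.32 and 19.35 in Control replicates 1, 2 and 3, and 41.34, 54.60 and 56.11 in DFMO replicates 1, 2 and 3. All DFMO libraries lay above all Control libraries, and replicate 1 was the lowest of each group. The means were 16.1% ± 5.55 and 50.7% ± 8.13 (SD, n = 3 each), a difference of 34.55 points. Read numbers behind the percents were 56, 52 and 64 in Control and 95, 86 and 97 in DFMO.

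The quality text also holds 3 read numbers per exon and library, whose meaning is not documented in the sources used here and was inferred from the percents they give: 2 inclusion junctions and 1 skipping junction. Reads on the 2 inclusion junctions, in the order the table lists them, were 7 and 3, 9 and 8, and 8 and 13 in the Control libraries, with 46, 35 and 43 reads that skip the exon. In the DFMO libraries the inclusion junctions held 20 and 36, 31 and 30, and 36 and 34 reads, with 39, 25 and 27 skipping reads. Inclusion reads were thus higher in every DFMO library on both junctions, and skipping reads spanned 35 to 46 in Control and 25 to 39 in DFMO.

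**Figure D1:**
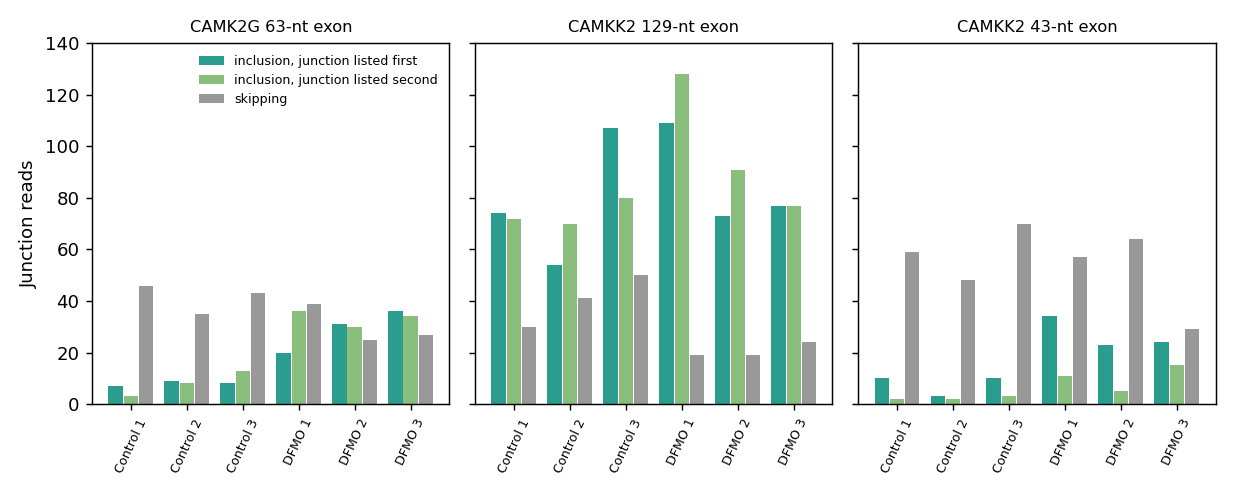
Junction reads (vertical axis, not scaled for depth) of 3 exons in each of the 6 libraries (horizontal axis): reads on the inclusion junction listed first, on the one listed second, and reads that skip the exon. In CAMK2G the skipping reads (35 to 46) exceed each inclusion junction in every Control library, and in DFMO replicates 2 and 3 they (25 and 27) fall below both.

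The other CAMK2 linker exons were set side by side with it. A linker exon was taken as one that lies wholly in a genomic window placed by the longest coding sequence of its gene. That transcript need not hold the exon. The window had the same limits in every gene, counted in codons from the start and from the end. These limits stand in for the calmodulin-binding segment and the association domain, whose own borders were not used. Exons near an end of the window, such as those of 43 nt, may thus code in part for the segment or the domain. An 86-nt exon of CAMK2G reaches 3 nt past this window and was not counted. CAMK2G had 7 such exons with at least 10 reads in every library. In transcript order these were of 43, 63, 44, 33, 69, 45 and 49 nt, and 3 of them, of 43, 44 and 49 nt, were at 100% in all 6 libraries. The 33-nt exon was at 0, 0 and 1.57% in Control and 0, 1.59 and 0% in DFMO. The 69-nt exon, whose coverage score was below the limit, was at 88.89, 86.89 and 88.24% in Control and 86.08, 86.57 and 93.75% in DFMO. The 45-nt exon was at 93.14, 96.42 and 100% in Control and 96.29, 95.87 and 100% in DFMO. For these 3 exons the groups overlapped.

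CAMK2D, the other CaMKII gene with enough reads, had linker exons that were near 0 or near 100% in every library. Its 43- and 38-nt exons were at 100% in all 6 libraries, and its 46-nt exon at 97.87 to 98.62% in Control and 98.89 to 100% in DFMO. The 60-nt exon was at 0% in every library, with 53 to 109 reads. The 33-nt exon was at 0% except for 0.85% in Control replicate 2, and the 42-nt exon at 0% in Control and 0, 0.54 and 1.30% in DFMO. A 123-nt exon without a matching GENCODE exon was at 0% except for 1.16% in DFMO replicate 2. Of these 60-, 33-, 42- and 123-nt exons of CAMK2D none was included above 1.30% in any library.

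**Figure D2:**
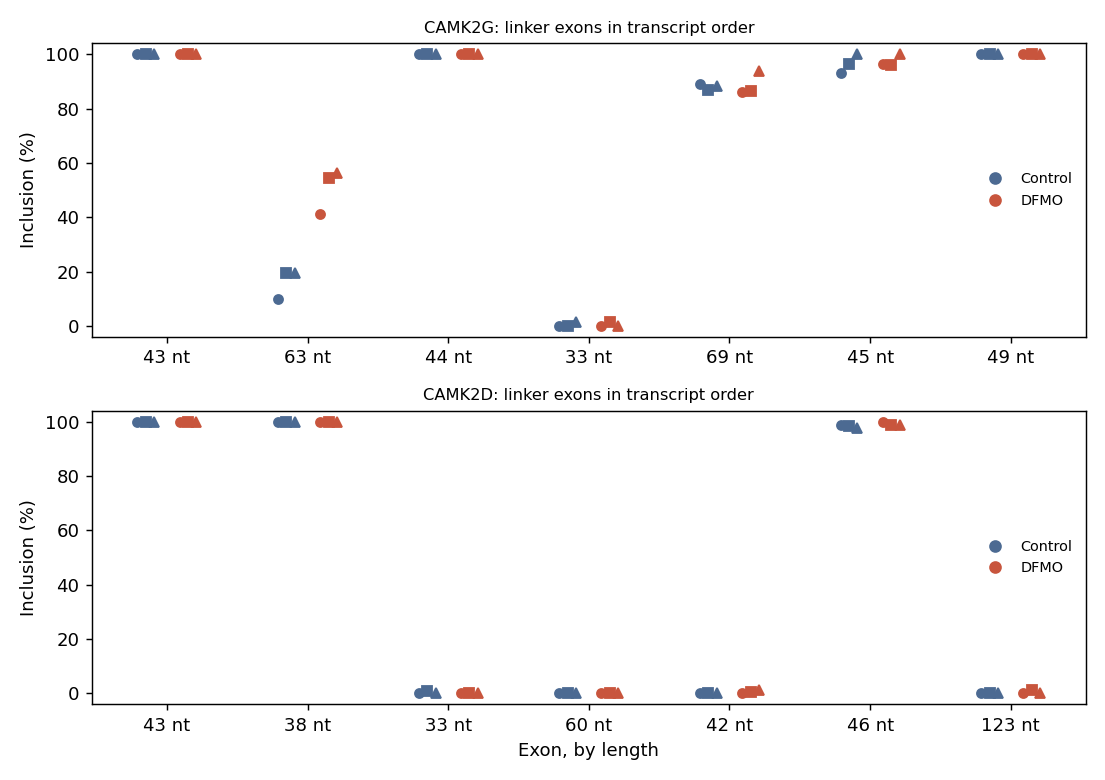
Inclusion (vertical axis, %) of the linker exons of CAMK2G (top) and CAMK2D (bottom) with at least 10 reads in every library, in transcript order and named by length (horizontal axis); circles, squares and triangles are replicates 1, 2 and 3. The CAMK2G 63-nt exon runs from 9.73 to 19.35% in Control and from 41.34 to 56.11% in DFMO, while the others stay near 0 or above 86%.

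The 33-nt linker exon is the best known of the row, since it supplies basic residues of the nuclear localisation signal of the CaMKII forms named αB and δB. It is shown for the 3 genes whose exon of this length was found, with its first 3 codons, which belong to that basic stretch, in capitals. It lies at chr5:150239704-150239736 in CAMK2A, chr4:113508236-113508268 in CAMK2D and chr10:73828089-73828121 in CAMK2G, each on the minus strand. The CAMK2G copy has 84.8% of its bases in common with CAMK2A and 78.8% with CAMK2D. CAMK2A inclusion could not be measured, with 2 to 7 reads per library.
CAMK2A 33-nt exon: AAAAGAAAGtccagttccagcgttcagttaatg
CAMK2D 33-nt exon: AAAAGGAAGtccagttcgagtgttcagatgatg
CAMK2G 33-nt exon: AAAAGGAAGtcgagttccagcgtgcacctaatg

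A 75-nt linker exon of CAMK2B, at chr7:44239589-44239663 on the minus strand, was aligned with the CAMK2G 63-nt exon. In a global alignment 45 of the 63 aligned bases were identical, or 60.0% of the longer exon, and 68.0% of its bases are G or C. It is shown for comparison only, because CAMK2B had 0 to 2 reads at this exon in each library, none of them an inclusion read. No other CAMK2B linker exon had more than 5 reads in a library.
CAMK2B 75-nt exon: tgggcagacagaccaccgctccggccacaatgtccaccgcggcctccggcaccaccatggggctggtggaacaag

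The annotated CAMK2G forms place these exons in proteins of different length. GENCODE lists 495 codons for the form without the 63- and 69-nt exons, 516 and 527 codons for 2 forms with the 63-nt exon alone, and 539 codons for the form with both. Placing the 63-nt exon in a 556-codon form that lacks it gave 577 codons with no stop inside the exon. Which of these forms a molecule held cannot be read from a table of single events.

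CAMK2G had 2 more exons in the test. An 86-nt exon at chr10:73819532-73819617 is annotated only in a transcript without coding sequence. Its inclusion was 23.97, 14.45 and 24.61% in Control and 32.71, 33.33 and 36.51% in DFMO. All DFMO libraries lay above all Control libraries, with means of 21.0% ± 5.69 and 34.2% ± 2.04 (SD, n = 3 each), but the difference of 13.2 points did not pass the test (adjusted p = 0.138, limma). Placed in the 556-codon form, this exon shifts the frame, and reading ends after 463 codons. A 55-nt coding exon at chr10:73853192-73853246 was at 84.7% and 84.5% (adjusted p = 0.908), with overlapping groups.

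Both alternative exons of CAMKK2, the kinase kinase that acts on CaMKI, CaMKIV and AMP-activated kinase, were included more in DFMO. The 129-nt exon was at 70.87, 60.19 and 65.16% in Control and 86.18, 81.19 and 76.24% in DFMO. The lowest DFMO library lay above the highest Control library. The means were 65.4% ± 5.34 and 81.2% ± 4.97 (SD, n = 3 each), and the log2 odds of inclusion rose by 1.21 (SE 0.303, adjusted p = 0.0302). Skipping reads were 30, 41 and 50 in Control and 19, 19 and 24 in DFMO, with 54 to 107 and 73 to 128 reads on single inclusion junctions.

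The CAMKK2 43-nt exon started lower. It was at 9.32, 5.06 and 8.61% in Control and 28.60, 18.11 and 40.76% in DFMO, so that the groups did not overlap and DFMO replicates 2 and 3 differed by more than the Control libraries did. The means were 7.66% ± 2.28 and 29.2% ± 11.3 (SD, n = 3 each), and the log2 odds rose by 2.17 (SE 0.545, adjusted p = 0.0300). The 2 inclusion junctions were uneven in every library, with 10 and 2, 3 and 2, and 10 and 3 reads in Control and 34 and 11, 23 and 5, and 24 and 15 in DFMO. Skipping reads were 59, 48 and 70 in Control and 57, 64 and 29 in DFMO.

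GENCODE holds all 4 combinations of the CAMKK2 exons among forms that are otherwise alike: 588 codons with both, 541 with the 129-nt exon alone, 545 with the 43-nt exon alone and 498 with neither. Because the 43-nt exon shifts the frame, forms with and without it end in different residues. The CAMKK2 calls were narrow. That of the 129-nt exon was lost without Control replicate 2 (adjusted p = 0.120), Control replicate 3 (0.0966), DFMO replicate 1 (0.120) or DFMO replicate 2 (0.0582), and with no variance trend (0.191). That of the 43-nt exon was lost without Control replicate 1 (adjusted p = 0.0570), Control replicate 2 (0.0773), Control replicate 3 (0.0738), DFMO replicate 1 (0.0947) or DFMO replicate 3 (0.119), and with no variance trend (0.127).

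**Figure D3:**
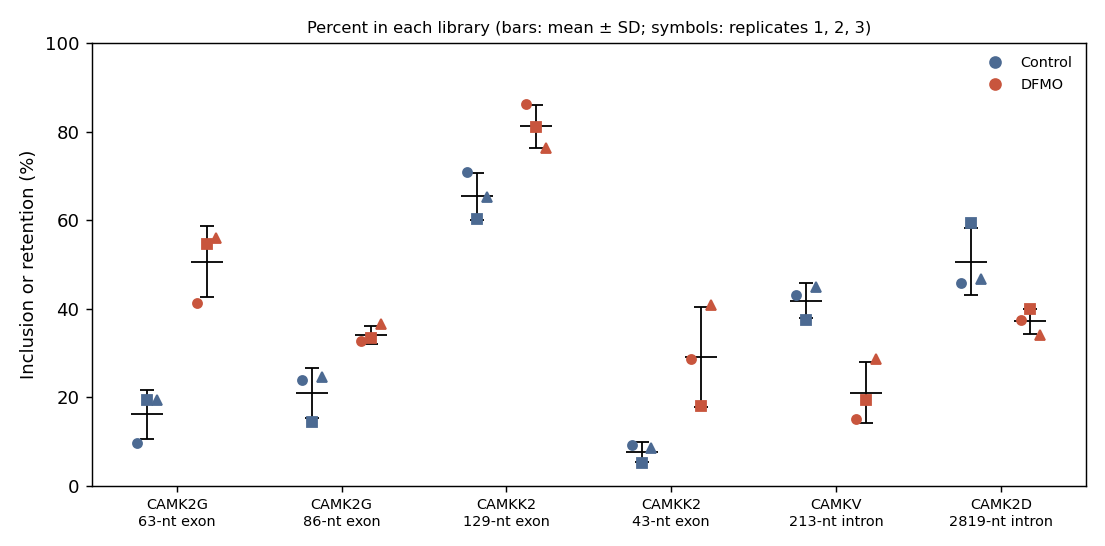
Percent of inclusion or retention (vertical axis) in each library for 4 exons and 2 introns of the family (horizontal axis); circles, squares and triangles are replicates 1, 2 and 3, and bars are the mean ± SD of 3 libraries. These are the tested exons and introns of the family whose Control and DFMO libraries do not overlap (4 of 7 exons, 2 of 6 introns). They were chosen for display with their values known. The 4 exons are higher and the 2 introns lower in DFMO. The share of such events over all genes was not counted. The counts include the CAMK2G 63-nt exon and the CAMKV intron that led to the choice, so nothing is read from them.

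Among the 190 exon events of the family, 114 had enough reads in every library, that is at least 10 and a coverage score of LOW or better. Of these, 81 were above 95% and 26 below 5% in the mean, so that 7 entered the test. Of these 7, 3 were called, all with higher inclusion (2 in CAMKK2 and the CAMK2G 63-nt exon that led to the choice). Without the exon that led to the choice, 2 of 6 were called. A call required at least 10 points between the means beside an adjusted p under 0.05. Over all genes, 3.45% of 7500 tested exons were called in either direction, and since the choice of the family used this comparison nothing is read from these shares. The median difference was 13.2 points over the 7 exons, 8.93 over the 6 without the exon that led to the choice, and 1.24 over all tested exons, and these too are given as a description only. Without Control replicate 2, Control replicate 3 or DFMO replicate 1 the count of called exons was 1.

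The 2 other tested exons were a 96-nt exon of CAMK2D and a 63-nt exon of CAMK4. The CAMK2D exon, at chr4:113455726-113455821 in the last part of the gene, was at 8.94, 14.87 and 11.50% in Control and 19.72, 15.05 and 14.58% in DFMO (adjusted p = 0.477), and the groups overlapped. GENCODE gives 499 codons to a form with it and 478 to several forms without it. The CAMK4 exon, at chr5:111374850-111374912, was at 93.5% and 95.5% in the mean (adjusted p = 0.310), with 631 to 808 reads per library.

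**Figure D4:**
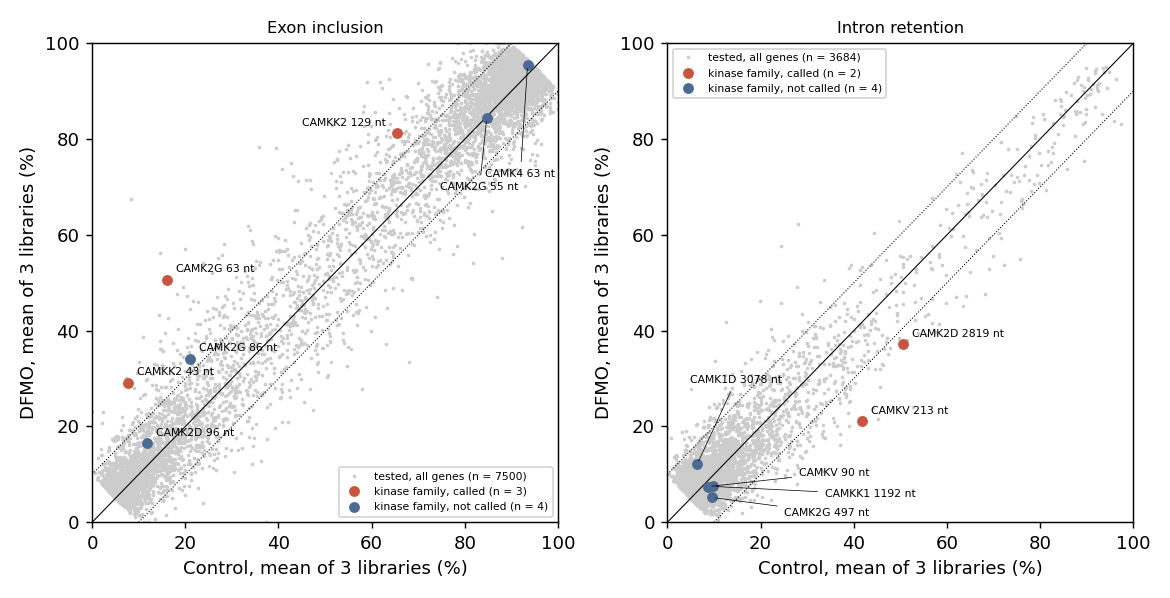
Mean inclusion of exons (left) and mean retention of introns (right), in % over 3 libraries, in Control (horizontal axis) and DFMO (vertical axis). Grey points are all tested events of the table (7500 exons, 3684 introns), coloured points those of the kinase family by whether they were called, the solid line marks equal means and the dotted lines a difference of 10 points. The called points include the CAMK2G exon and the CAMKV intron that led to the choice of the family.

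The deposited percent of intron retention was lower in DFMO for an intron of CAMKV and an intron of CAMK2D. For the CAMK2D intron, for reasons given below, this percent may not measure retention alone. The CAMKV intron, of 213 nt at chr3:49861578-49861790 on the minus strand, was retained at 43.16, 37.44 and 44.92% in Control and 15.19, 19.44 and 28.57% in DFMO. Every DFMO library lay below every Control library, with means of 41.8% ± 3.91 and 21.1% ± 6.84 (SD, n = 3 each). Reads across its 2 ends were 42 and 40, 33 and 40, and 55 and 51 in Control, with 54, 61 and 65 spliced reads. In DFMO they were 7 and 17, 15 and 13, and 13 and 15, with 67, 58 and 35 spliced reads, so that end reads were lower in all 3 libraries while spliced reads spanned 35 to 67 against 54 to 65.

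This CAMKV intron is spliced out of 9 annotated transcripts and held in 2. In the 501-codon form, a molecule that retains it meets a stop codon at the second base of the intron, after 101 codons. It is shown whole, as 1 of the 2 holding transcripts gives it, with its first and last 2 bases, the splice dinucleotides, in capitals.
CAMKV 213-nt intron: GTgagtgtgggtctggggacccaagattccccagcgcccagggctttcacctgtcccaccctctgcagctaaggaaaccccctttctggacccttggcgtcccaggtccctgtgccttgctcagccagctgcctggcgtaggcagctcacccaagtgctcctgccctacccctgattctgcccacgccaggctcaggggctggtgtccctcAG

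The CAMK2D intron has 2819 nt and lies at chr4:113454516-113457334 on the minus strand. Its percent was 45.72, 59.41 and 46.84 in Control and 37.46, 39.88 and 34.16 in DFMO, and the groups did not overlap. The means were 50.7% ± 7.60 and 37.2% ± 2.87 (SD, n = 3 each), and the log2 odds fell by 0.79 (SE 0.233, adjusted p = 0.0136). In GENCODE 6 transcripts end inside this intron and 1 splices it whole, so reads across its ends can also come from forms with another end. Reads at its 2 ends were 86 and 19, 48 and 47, and 60 and 38 in Control and 57 and 19, 76 and 31, and 52 and 33 in DFMO. The groups overlapped at both ends. Spliced reads were 62, 32 and 55 in Control and 63, 80 and 81 in DFMO, not scaled for depth. The 96-nt exon of CAMK2D described above lies inside this intron. With only introns of balanced end reads this intron did not enter the fit. The call was lost without Control replicate 2 (fall of 9.11 points, adjusted p = 0.223) or DFMO replicate 3 (0.0854), with the mean percent left unfiltered (0.0993) and with no variance trend (0.276).

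Of 146 intron events of the family 89 had enough reads, 83 of them with a mean retention below 5%, and 6 were tested. Of these 6, 2 were called, both with a lower deposited percent of retention: the CAMKV intron that led to the choice and that of CAMK2D. Without the CAMKV intron, 1 of 5 was called. Over all genes 3.8% of 3684 tested introns were called, and nothing is read from this share for the same reason. The median difference was -3.34 points over the 6 introns, -2.25 over the 5 without the CAMKV intron that led to the choice, and 0.33 over all tested introns, again as a description only. The other 4 introns, in CAMK2G (497 nt), CAMKK1 (1192 nt), CAMKV (90 nt) and CAMK1D (3078 nt), had mean retentions of 5.17 to 12.1% and adjusted p values of 0.433 to 0.938. The count was 1 without Control replicate 2 or DFMO replicate 3.

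No splice site of the family was called. Of 79 acceptor events 27 had enough reads and none lay between 5 and 95%, and of 70 donor events 26 had enough reads and 4 were tested. Limma called 0 of these 4 donors, with 0 at an unadjusted p below 0.05, and a quasi-binomial test also called 0. Over all genes 1.16% of acceptors and 2.28% of donors were called. The 44-nt donor choice of CAMK2D, which opens the intron described above, was at 28.3% ± 6.14 in Control and 27.1% ± 2.99 in DFMO (SD, n = 3 each; adjusted p = 0.953). The CAMKV donor choice of 21 nt was at 95.35, 96.88 and 96.43% in Control and 94.64, 94.03 and 92.63% in DFMO (adjusted p = 0.803).

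The levels of the genes were read from the same table, which holds no gene counts. A gene's read level is the mean over its exon events of log2(1 + reads per 1e+06 exon-event reads). An included exon has 2 junctions, so this level also moves with inclusion, and in bulk RNA fewer cells with a transcript cannot be told from less RNA per cell. Of the 10 genes 7 could be measured. At an adjusted p below 0.05, CAMK2D and CAMK2G rose, CAMKV fell, and for the other 4 the test was not passed. Over all genes 44.5% of 9232 passed that test, and none of the 7 reached a 1.5-fold change.

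CAMKV fell. Its level was 2.58, 2.63 and 2.64 in Control and 2.32, 2.21 and 2.22 in DFMO on the log2 scale, with no overlap (fall of 0.37, SE 0.0450, adjusted p = 0.000337). CAMK2D rose, from 2.10, 2.10 and 2.04 to 2.31, 2.40 and 2.34 (log2 difference 0.27, SE 0.0444, adjusted p = 0.00147), and again the groups did not overlap. CAMK2G rose from 1.66, 1.57 and 1.71 to 1.82, 1.86 and 1.79 (log2 difference 0.18, SE 0.0545, adjusted p = 0.0269). All DFMO libraries were higher for CAMK2G. It no longer passed the test, however, without Control replicate 1 (adjusted p = 0.0539), Control replicate 2 (0.0871), DFMO replicate 1 (0.0641) or DFMO replicate 2 (0.0836), and with intron events in place of exon events (0.125).

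CAMK4, the nuclear kinase, had the highest read level per exon event of the family, at 4.49 ± 0.0132 in Control and 4.55 ± 0.0430 in DFMO (SD, n = 3 each; adjusted p = 0.187, limma). CAMKK2 was at 2.40 and 2.44 (adjusted p = 0.407) and CAMKK1 at 2.27 and 2.22 (adjusted p = 0.378), and the libraries of the groups overlapped for both. CAMK1D was at 1.46 ± 0.0428 in Control and 1.30 ± 0.142 in DFMO (SD, n = 3 each; adjusted p = 0.128, limma), and it passed the test without DFMO replicate 2 (log2 fall of 0.24, adjusted p = 0.0246).

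CAMK1, CAMK2A and CAMK2B had no event that met the coverage score in every library, and none entered a test. CAMK1 still had 8 exon events with at least 10 reads in each library (11 to 42 reads), and 6 of them were at 100% in all 6 libraries. Its 113-nt exon was at 92.59% in Control replicate 1 and its 132-nt exon at 84.62 and 83.33% in Control replicates 1 and 2, and both were at 100% in the other libraries. For CAMK2A and CAMK2B inclusion could not be read at this depth. CAMK2A had a median of 0 in every library over 21 exon events, and at most 15 reads at any of them. CAMK2B had medians of 0 to 4 over 25 exon events, and at most 9 reads at any of them. The CaMKII genes with tested events were thus CAMK2D and CAMK2G.

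**Figure D5:**
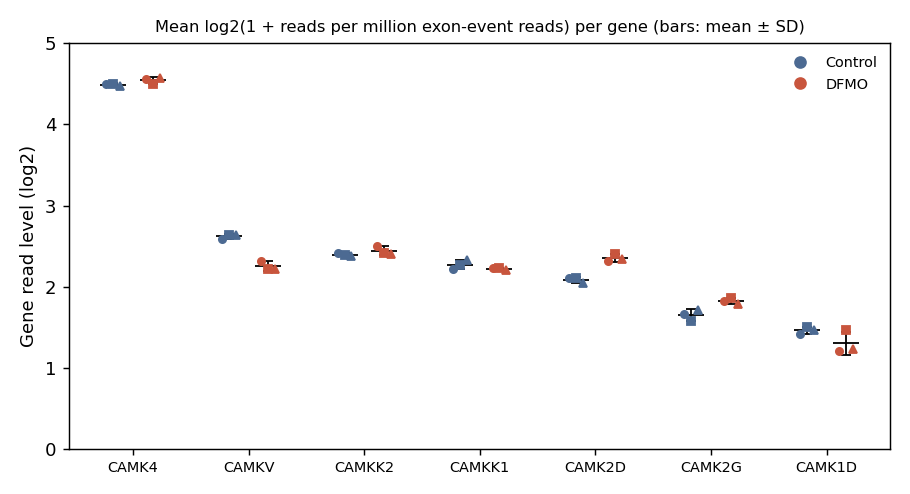
Gene read level (vertical axis, log2) of the 7 measured genes of the family (horizontal axis) in each library; circles, squares and triangles are replicates 1, 2 and 3, and bars are the mean ± SD of 3 libraries. CAMKV is lower in all DFMO libraries, CAMK2D and CAMK2G are higher, and CAMK4 is near 4.5 in both groups.

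Around the kinases, a list of 84 other genes of calcium and calmodulin signalling was followed, of which 53 could be measured. By read level 9 rose and 7 fell, while 37 stayed below the threshold of the test that 44.5% of all genes passed, with a median log2 difference of 0.01 and none past 1.5-fold. CALM3, which encodes calmodulin, rose from 5.87 to 5.96 (log2, adjusted p = 0.0230). CAMK2N1, an inhibitor of CaMKII, rose from 1.17 to 1.72 (adjusted p = 0.00384), though from 1 exon event only. GAP43, which binds calmodulin, fell from 5.84 to 5.47 (adjusted p = 0.000360), and CACNB3, a calcium channel subunit, from 1.85 to 1.29 (adjusted p = 0.000244). EEF2K, a calmodulin-dependent kinase of elongation factor 2, rose from 2.54 to 2.89 (adjusted p = 0.000293).

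Downstream targets were counted in the same way. Of 21 listed targets of the kinases, 19 were measured, 3 rose and 3 fell, beside the 44.5% of all genes that passed this test in either direction. CREB1 (log2 difference 0.14, adjusted p = 0.0267), PRKAA1 and PRKAG1, subunits of AMP-activated kinase (0.15, adjusted p = 0.0468, and 0.20, adjusted p = 0.00625), rose. CRTC2, a coactivator of CREB, HDAC5 and DLG4 fell, by 0.23, 0.17 and 0.20 on the log2 scale. All 6 calcineurin genes that could be measured did not pass the test.

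In this list 113 splicing events were tested and 5 of them, in 4 genes, passed the call rule, with 3 increases and 2 decreases in DFMO. Over all genes 3.45% of exons, 3.8% of introns, 1.16% of acceptors and 2.28% of donors passed it, so the count lies near the background and is not a result about the list. CASK, a scaffold with a kinase-like domain, had a 36-nt exon at 73.97, 82.44 and 79.20% in Control and 94.32, 98.42 and 94.66% in DFMO (adjusted p = 0.0107). Its 69-nt exon went the other way, from 38.60, 50.45 and 51.07% to 26.27, 31.63 and 25.83% (adjusted p = 0.0304). GRIN1, the obligatory NMDA receptor subunit, had a 63-nt exon at 11.67, 14.61 and 17.65% in Control and 31.08, 31.43 and 46.21% in DFMO (adjusted p = 0.0344). The groups did not overlap in any of these 3 exons. The remaining called events were a 345-nt exon of CRTC2, at 95.1% and 83.8% (adjusted p = 0.0222), and an acceptor in CACNA2D1, which encodes a calcium channel subunit, at 67.4% and 88.8% (adjusted p = 0.00149). The list held 3 called events without Control replicate 1 or without any single DFMO replicate, and 0 with no variance trend.

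The labelled cell type was checked by the same level. All 10 noradrenergic neuroblast markers were measured. By the test that 44.5% of all genes passed, 4 rose and 2 fell, and nothing is read from this count. Their summed level was 530 to 545 reads per 1e+06 exon-event reads in Control and 571 to 589 in DFMO. Of 9 markers of the mesenchymal neuroblastoma state 2 were measured (summed level 16.2 to 16.8 in Control and 17.0 to 18.2 in DFMO), and of 4 Schwann cell markers 1 (0.852 to 0.913 and 0.945 to 1.29), and none of these 3 passed the test. The part of these shifts in the kinase results was not tested. Summed over all event classes, reads per library were 77648922 to 103250467 in Control and 82918379 to 100005273 in DFMO.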

How the data were processed

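The authors deposited 1 table of splicing events with, per the file headers, a percent for each library (inclusion of an exon, retention of an intron or use of a splice site) and a quality text holding a coverage score and reads, whose fields were read from the values because no source documents them. The genome was GRCh38 per the submitters' processing notes. Which programs aligned reads and counted junctions, and how reads shared by similar genes were assigned, is not given in the sources used here. All percents recomputed from the pair of read numbers that ends the quality text, for and against an event, lay within 0.5 points. This pair is not a count of junction reads. The CAMK2G 63-nt exon, with junction reads of 7, 3 and 46 in Control replicate 1, had a percent of 9.73 of 56 reads. The pair may have been derived from the percent, so the agreement is no check of it.

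A tested event had 10 or more reads and a score no worse than LOW in all 6 libraries, and a mean percent of 5 to 95. The log2 odds (0.5 added to both numbers of that pair) were fitted over the whole table with limma 3.58.1 in R 4.3.3, robust, with a variance trend on the counting variance. P values are two-sided, adjusted by Benjamini-Hochberg within exons, introns, acceptors and donors. The script was tested on simulated data. The members and lists were chosen with earlier results of these data known. Named were all 10 genes, member events with an adjusted p below 0.05, linker exons with at least 10 reads, list genes and events past the call rule, and 5 exons of other genes nearest in percents; other genes and events were named after their values were seen. Exon sequences and the linker window come from GENCODE release 29, in place of RefSeq. Alternatives are in the closing section. With 43 to 808 reads behind the percents of the family's tested exons, precision is limited by counting as well as by the spread of 3 libraries.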

Additional observations from a re-analysis of the deposited data

How the results depend on the processing

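The difference of the CAMK2G 63-nt exon is one of deposited percents, so the alternative fits left it at 34.55 points. It was 31.3 to 39.2 points when single libraries were left out. As its groups do not overlap, leaving out a library could not reverse it. The 3 called exons, which include the CAMK2G exon that led to the choice, became 0 with no variance trend. They became 1 with the variance of pooled percents (an alternative chosen after seeing the data) and 1 to 2 without single libraries. The 2 called introns, which include the CAMKV intron that led to the choice, became 0 with no variance trend and 1 with no filter on the mean percent. They became 1 with balanced intron reads only, where the CAMK2D intron did not enter, and 1 to 2 without single libraries. The calcium list's 5 called events became 0 with no variance trend, 2 with the variance of pooled percents and 3 to 4 without single libraries. With the variance of pooled percents the CAMKK2 129-nt and 43-nt exons had adjusted p values of 0.0654 and 0.0501. Deviations of libraries with the same replicate number correlated at -0.0202, -0.00217 and -0.00697 over 7500 exons, so no shared deviation by number was seen. This cannot tell whether such libraries were prepared together, and the labels do not say. With a replicate block 3 exons, 2 introns, 0 splice sites and 6 events of the calcium list were called, and 2 genes of the family changed in read level against 3 without it; CAMK2G was the gene lost (adjusted p = 0.0552). For the read level of a gene, a call is here an adjusted p below 0.05 alone, with no limit on fold. Of the 6 single events and genes with a printed test and a call, 55 of 78 recomputed values kept the call, 23 lost it and none reversed. Of the 16 without a call, 2 of 212 recomputed values gained one. With no variance trend the CAMK2G 63-nt exon and the CAMKV intron were not called either, since no exon and no intron of the family was. With no filter on the score CAMK4 passed the level test (log2 difference 0.13, adjusted p = 0.0185).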

Other observations

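Some events of the family had at least 10 reads in every library but a coverage score below the limit, and are given as values with no test. CAMK1D, a kinase activated by CaMKK, had a donor with 3 choices and 21, 41 and 62 reads in Control and 35, 23 and 38 in DFMO. Its 43-nt choice was used at 70.41, 67.79 and 75.51% in Control and 42.49, 64.88 and 41.97% in DFMO, and its 47-nt choice at 4.69, 19.37 and 17.67% and 42.49, 25.95 and 52.46%. In both choices the groups did not overlap, and the 47-nt site was used more in every DFMO library.

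A 24-nt acceptor choice of CAMK2G was at 76.71, 88.28 and 92.70% in Control and 96.58, 100 and 100% in DFMO. The groups did not overlap. In CAMKK1 the groups overlapped for a 22-nt exon, at 78.09, 83.30 and 91.48% in Control and 90.59, 85.89 and 84.31% in DFMO, and for a 114-nt exon, at 36.76, 49.80 and 49.76% and 47.80, 66.83 and 44.33%. An 8-nt donor choice of CAMKK2 met the coverage score but was not tested because its mean lay above 95%. It was at 96.01, 93.92 and 94.95% in Control and 97.84, 98.48 and 100% in DFMO, without overlap.

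Among the tested exons of other genes, the 5 nearest to the CAMK2G 63-nt exon in the percents of the 6 libraries (Euclidean distance, in points) lay in VCAN (10.6), ACIN1 (14.8), CDH24 (17.6), DTNB (18.3) and DIS3 (18.4). The VCAN exon, of 2961 nt, was at 14.96, 19.51 and 26.35% in Control and 38.44, 50.38 and 52.83% in DFMO. It had its lowest value of each group in replicate 1, as the CAMK2G exon did, while the ACIN1, CDH24, DTNB and DIS3 exons did not. These exons were picked for this likeness, over 6 libraries of 1 line.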
